A study of Mus musculus with 272 samples.

Results

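Trophectoderm regulators and keratins were followed through mouse oocyte maturation and preimplantation development. The set was listed by name and role: the transcription factors Cdx2, Gata3, Gata2, Eomes and Tfap2c and the keratins Krt8, Krt18, Krt7 and Krt19. Of these 9 genes, 8 were rows of the deposited table of 15854 gene symbols, and Krt19 was not analysed here. The study sampled 8 stages, which were the germinal vesicle (GV) oocyte, the metaphase II (MII) oocyte, the zygote, the 2-cell, 4-cell and 8-cell embryo, the morula and the blastocyst. Each stage had 4 transcriptome libraries from pools of 20 oocytes or embryos, and 3 sucrose gradients (A, B and C) of about 100 oocytes or embryos, each cut into 10 fractions sequenced one by one. The pools for the transcriptomes were drawn from the batch used for the gradients of that stage. All lysates for gradients carried cycloheximide, which holds ribosomes on their transcripts, and no other agent, strain or genotype separates the groups in the labels. Values are CPM, the counts of a gene scaled to the size of its library.

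The trophectoderm is the outer epithelium of the blastocyst and gives rise to the placenta. Its fate is set in outer cells of the morula, where the transcription factors Cdx2 and Gata3 are switched on and Eomes, Gata2 and Tfap2c take part in the trophoblast programme. Krt8, a type II keratin, pairs with Krt18, a type I keratin, into the first intermediate filaments of the embryo, and Krt7 is a further type II keratin of simple epithelia. A whole blastocyst also holds an inner cell mass, so in these pooled samples fewer cells of a type and less RNA per cell cannot be told apart.

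The stretches upstream of 5 of the genes are printed here because they place the letters bound by factors of the set beside the genes that rose. RefSeq start sites (GRCm38.p6) gave windows of 250 bases before the start for 7 of the 8 genes, Gata2 with a pair of start sites. Each line below reads 5′ to 3′ towards the gene, with matches to searched motifs in capitals.
Cdx2, chr5:147307250-147307499, minus strand: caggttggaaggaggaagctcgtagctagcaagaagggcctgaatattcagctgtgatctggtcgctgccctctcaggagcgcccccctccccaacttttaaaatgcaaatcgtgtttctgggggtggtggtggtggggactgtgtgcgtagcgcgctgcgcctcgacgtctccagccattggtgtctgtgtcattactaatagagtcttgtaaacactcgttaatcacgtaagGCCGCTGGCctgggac
Gata3, chr2:9878601-9878850, minus strand: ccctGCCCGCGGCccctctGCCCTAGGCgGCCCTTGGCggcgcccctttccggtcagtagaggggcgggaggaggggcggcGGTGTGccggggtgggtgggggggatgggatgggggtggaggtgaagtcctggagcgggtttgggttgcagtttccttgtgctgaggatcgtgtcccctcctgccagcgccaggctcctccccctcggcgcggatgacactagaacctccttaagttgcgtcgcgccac
Krt18, chr15:102027966-102028215, plus strand: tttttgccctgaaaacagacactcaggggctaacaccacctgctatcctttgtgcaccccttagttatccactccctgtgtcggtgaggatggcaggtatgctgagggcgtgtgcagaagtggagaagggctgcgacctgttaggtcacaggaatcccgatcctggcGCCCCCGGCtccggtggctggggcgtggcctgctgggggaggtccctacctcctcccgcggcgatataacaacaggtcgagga
Krt7, chr15:101412153-101412402, plus strand: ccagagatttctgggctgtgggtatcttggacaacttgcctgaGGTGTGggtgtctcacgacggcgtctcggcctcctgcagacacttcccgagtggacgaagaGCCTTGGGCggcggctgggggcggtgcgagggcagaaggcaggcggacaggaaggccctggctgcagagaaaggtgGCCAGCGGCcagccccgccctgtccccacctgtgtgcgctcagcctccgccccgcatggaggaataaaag
Krt8, chr15:102004343-102004592, minus strand: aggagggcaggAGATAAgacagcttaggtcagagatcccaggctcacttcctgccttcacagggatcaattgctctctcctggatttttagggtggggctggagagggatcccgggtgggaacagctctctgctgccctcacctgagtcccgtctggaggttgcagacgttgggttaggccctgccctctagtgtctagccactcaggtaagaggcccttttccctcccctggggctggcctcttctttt
Motifs were sought on both strands. GCCNNNGGC, the core bound by TFAP2 factors, occurred upstream of 5 of the 7 genes (Cdx2, Gata3, Gata2, Krt18 and Krt7). This was 5 of their 8 windows, against 13.7% of 32851 such windows in the mouse genome. In Gata3 it occurred 3 times and in Krt7 2 times, and in Cdx2 it lay close to the start site, at bases 235 to 243 of the window. The fixed letters of GCCNNNGGC are all G or C. G and C made up 55.2% (Cdx2) to 74.0% (Gata2) of the windows that held it, against 52.4% in the median window. Windows without it had 46.4% (Eomes), 58.0% (Krt8) and 67.2% (the other Gata2 start). The part of this content in the matches was not tested. AGATAA, a core for GATA factors, matched only the Krt8 window of the 7 genes (9.99% of all windows). GGTGTG, a T-box core, matched Gata3 and Krt7 (16.3% of all windows), and GGAATG, bound by TEAD factors, matched a Gata2 window (12.6%). TTTATG, read by CDX factors, matched none of the 7 genes and 10.8% of all windows. A match describes letters and not a bound site.

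Transcriptome libraries held 11.2 to 24.3 M reads and single fractions 0.0102 to 43.2 M reads. Changes are on the log2(CPM + 1) scale, which understates changes of low genes. Libraries hold amplified poly(A) RNA scaled to library size, so a change in CPM is not by itself a change in transcript number. A gene is said to rise or fall where limma's moderated test, fitted over all genes and stages, gave a Benjamini-Hochberg adjusted p under 0.05 and a change of at least 1. Nothing in the labels says that pools came from separate matings, so p-values measure the spread between these samples, which may be technical. Strand use is not given in the sources used here, so reads of Gata3, Eomes, Krt8 and Krt7 cannot be told apart from those of annotated genes with overlapping exons on the other strand, and Gata3 has such a gene on its own strand too.

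Cdx2, the homeobox factor that maintains trophectoderm fate, was close to 0 until the 8-cell stage and rose at each step after it. The oocytes had 0 CPM in all 8 libraries, and no 2-cell or 4-cell library passed 0.51 CPM. At the 8-cell stage the 4 libraries had 5.31, 0.95, 1.08 and 0 CPM. The 4-cell to 8-cell change of 1.01 (SE 0.31, limma adjusted p = 0.0335) rested on these uneven values. It lost its call in 5 of the 8 fits that each left out 1 library, those without 4-cell library A, C or D or 8-cell library A or C. A fit of the 2 stages alone did not test it, since too few libraries reached 1 CPM. Morula libraries had 14.28, 4.16, 8.21 and 7.66 CPM and blastocyst libraries 78.55, 108.52, 89.46 and 93.29 CPM. No blastocyst library overlapped a morula library, and only morula library B fell below the highest 8-cell library. Cdx2 rose by 1.99 (SE 0.31, limma adjusted p = 7.37e-06) from 8-cell to morula, and by 3.38 (SE 0.31, limma adjusted p = 3.62e-11) from morula to blastocyst. With DESeq2 on recovered reads the 8-cell to morula rise missed its call.

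Gata3, a zinc finger factor that acts beside Cdx2 in trophectoderm, was present in oocytes, was nearly lost by the 4-cell stage and came back from the morula on. GV oocytes had 39.37, 33.03, 42.34 and 35.96 CPM, MII oocytes 86.78 to 95.24 CPM and zygotes 92.6 to 127.63 CPM. It fell to 37.34, 38.01, 40.02 and 36.23 CPM at the 2-cell stage, and to 1.39, 5.42, 2.57 and 1.47 CPM at the 4-cell stage. The maternal part of the curve thus moved in steps larger than the spread within stages: up by 1.25 (limma adjusted p = 5.76e-05) from GV to MII, and changed by -1.46 (adjusted p = 5.87e-06) and -3.51 (adjusted p = 4.71e-15) in the following cleavages. Into the morula Gata3 rose by 1.72 (SE 0.25, limma adjusted p = 2.76e-06), with all 4 morula libraries between 12.94 and 16.56 CPM. From morula to blastocyst it rose by 3.32 (SE 0.25, limma adjusted p = 4.27e-13) to 186.4, 137.08, 167.91 and 131.61 CPM, 10.6-fold over the morula mean.

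Gata2 and Eomes had a low early peak at the 2-cell stage and a higher level only in the blastocyst. Gata2, a relative of Gata3 active in trophoblast, had 2.12, 1.38, 3.64 and 2.14 CPM in 2-cell libraries, was at or below 0.54 CPM in the 4-cell, 8-cell and morula libraries and reached 12.64, 8.23, 11.22 and 9.46 CPM in blastocysts. Eomes, a T-box factor needed for trophoblast development, had 2.12, 1.46, 3.13 and 2.21 CPM in 2-cell libraries and 24.9, 22.79, 26.4 and 16.41 CPM in blastocysts. Between these peaks Eomes overlapped between 4-cell (0.11 to 1.99 CPM), 8-cell (0.17 to 2.57 CPM) and morula (0.61 to 2.31 CPM). Both genes rose from zygote to 2-cell (Gata2 by 1.65 and Eomes by 1.41), and both fell to the 4-cell stage (Gata2 -1.40, Eomes -1.06), with limma adjusted p at or below 8.98e-04. The fall of Eomes lost its call without 4-cell library C or D or 2-cell library G. From morula to blastocyst Gata2 rose by 3.34 (SE 0.18, limma adjusted p = 9.22e-17) and Eomes by 3.33 (SE 0.28, limma adjusted p = 5.20e-12).

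Tfap2c, an AP-2 factor expressed in outer cells before Cdx2 is abundant, took another course. It was at 9.33, 6.33, 8.94 and 7.03 CPM in GV oocytes and 25.34, 16.02, 10.66 and 16.72 CPM at the 2-cell stage, and then rose by 2.31 (SE 0.18, limma adjusted p = 5.27e-14) to 92.08, 96.34, 86.97 and 69.05 CPM at the 4-cell stage. From there it was nearly level, at 76.8 to 97.37 CPM in 8-cell libraries, 80.96 to 95.17 CPM in morulae and 136.87, 130.3, 116.03 and 124.77 CPM in blastocysts. Its change into the blastocyst, 0.49 (SE 0.18, limma adjusted p = 0.0234), passed the p threshold and not that of size. Its 4 blastocyst libraries still lay above every morula library.

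The keratins Krt8 and Krt18 started at different stages and ended at like levels. Krt8 was detected in GV oocytes at 2.04, 3.06, 4.09 and 1.64 CPM and then fell by 1.81 (SE 0.27, limma adjusted p = 4.91e-07), when 3 of 4 MII libraries had 0 and the other 0.09 CPM. Krt18 was at 0 in 3 of 4 GV libraries and in all MII and zygote libraries. In the 2-cell embryo Krt18 had 19.7, 7.97, 11.08 and 7.95 CPM, at least 73.9-fold higher than the zygote, which is taken at a floor of 3 reads per library (0.158 CPM). Krt8 had 2.44, 1.23, 0.42 and 2.5 CPM there. The 2-cell rise of Krt18 was 3.57 (SE 0.25, limma adjusted p = 7.04e-15), and that of Krt8 was 1.04 (SE 0.27, limma adjusted p = 0.00127). The Krt8 call was lost without 2-cell library E or H, without zygote library B or D, and under quantile normalization.

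After that stage both keratins moved in steps. Krt8 rose to 14.75, 7.82, 17.9 and 8.05 CPM at the 4-cell stage (change 2.32, SE 0.27, limma adjusted p = 1.14e-09), while Krt18 had 8.98, 15.57, 18.86 and 7.19 CPM, a change of 0.11 (SE 0.25, adjusted p = 0.699). Neither passed the test from 4-cell to 8-cell (0.08 for Krt8 and -0.15 for Krt18). Morulae had 73.62, 61.55, 56.49 and 96.72 CPM of Krt8 and 46.58, 43.52, 47.24 and 49.85 CPM of Krt18, above every 8-cell library. Blastocysts had 1228.28, 1122.48, 1395.99 and 1128.26 CPM of Krt8 and 969.12, 811.82, 1048.57 and 714.16 CPM of Krt18. Krt8 was 16.9-fold and Krt18 18.9-fold higher than in the morula, changes of 4.09 (SE 0.27, limma adjusted p = 1.68e-14) and 4.20 (SE 0.25, limma adjusted p = 6.53e-16). From 8-cell to blastocyst these were the 5th and 8th largest rises among 14642 genes tested.

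Krt7 was the late and low member of the keratins. It did not pass 1.04 CPM in any library before the blastocyst, where it had 8.7, 7.95, 9.01 and 6.41 CPM, a rise of 2.74 over the morula (SE 0.18, limma adjusted p = 1.30e-14). Levels of different genes can be compared only per length, here per kilobase of the union of exons in GENCODE M21. On that scale the blastocyst transcriptome held 622 ± 65.2 CPM per kilobase of Krt8 and 617 ± 105 of Krt18 (SD, n = 4), which overlap, and 40.9 ± 5.48 of Cdx2, 39.2 ± 6.52 of Gata3 and 34.5 ± 2.40 of Tfap2c, which overlap with each other at neighbouring ranks. Eomes (5.45 ± 1.06), Gata2 (1.92 ± 0.36) and Krt7 (1.14 ± 0.17) lay below these without overlap. Their exon unions had 4155, 5398 and 7049 bases, against 1958 for Krt8 and 1437 for Krt18. A union holds the exons of all annotated transcripts, so it lowers the value where the transcript present is shorter. The order of these low genes depends on that length. Per kilobase, the ratio of Krt8 to Krt18 was 0.12 ± 0.09 at the 2-cell stage, 0.77 ± 0.35 at the 4-cell stage, 0.87 ± 0.23 at the 8-cell stage, 1.13 ± 0.23 in the morula and 1.02 ± 0.10 in the blastocyst (SD, n = 4 each).

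**Figure D1:**
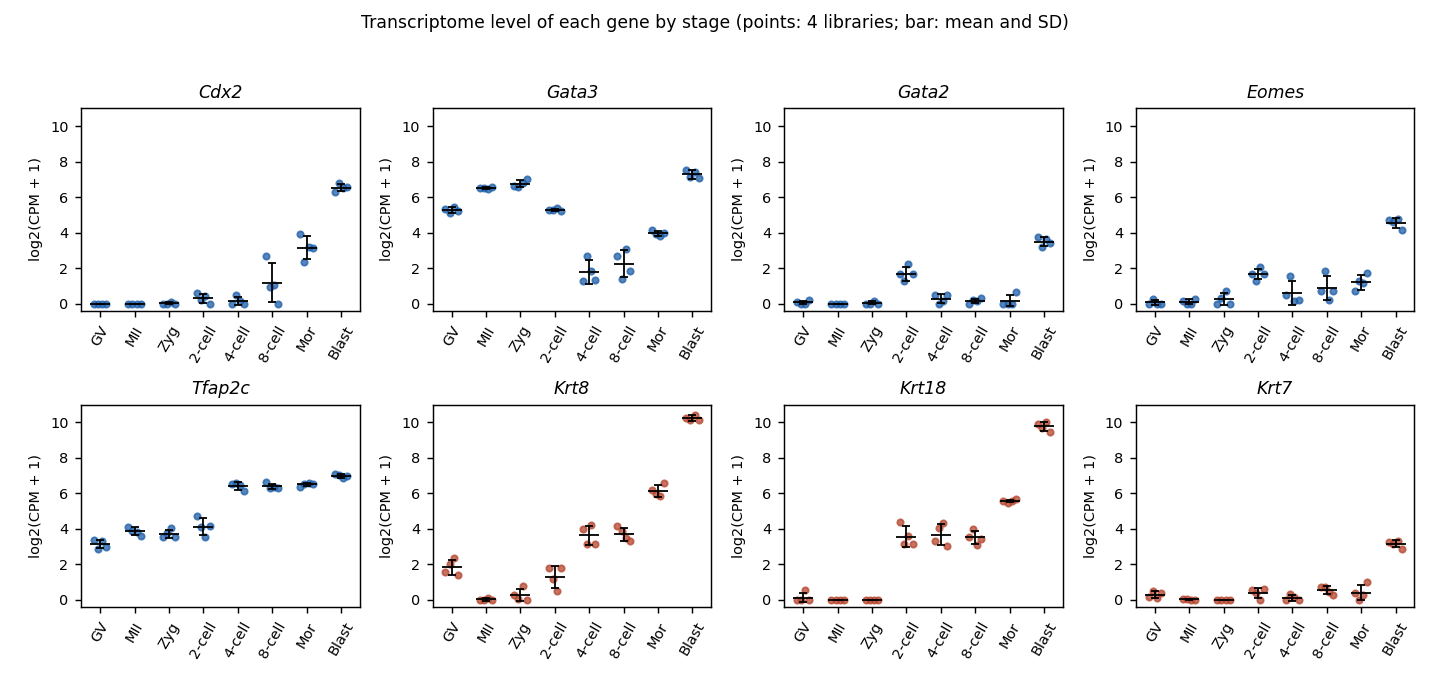
Transcriptome level of the 8 genes at the 8 stages, as log2(CPM + 1) on the vertical axis, with 4 libraries as points and the mean and SD as bars (blue, transcription factors; red, keratins). Cdx2, Krt8 and Krt18 climb from the 8-cell stage on, Gata3 dips at the 4-cell stage, and Tfap2c is nearly level from the 4-cell stage.

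Counted by comparison in the transcriptome, 2 of the 8 genes changed at oocyte maturation, GV to MII (34.5% of all genes tested). At fertilization, MII to zygote, limma called none (10.3%) and gave none an unadjusted p under 0.05, while edgeR called none and DESeq2 called Krt8. At the first cleavage 5 changed (33.9%), at the 2-cell to 4-cell step 5 (64.8%) and at the 4-cell to 8-cell step 1 (2.6%). Into the morula 4 of the 8 rose (Cdx2, Gata3, Krt8 and Krt18), where 8.18% of all genes rose and 11.9% changed. From morula to blastocyst 7 of the 8 rose, all but Tfap2c, where 18.8% of all genes rose and 26.8% changed. These 7 kept their call in each of the 17 other fits that were run. From 8-cell to blastocyst the same 7 rose, against 28.2% of all genes rising.

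Genes with the most similar course over the 32 transcriptome libraries were named by Pearson's r, as a description over libraries that share stages. For Cdx2 these were Dsg2 (r = 0.968), a desmosomal cadherin, and Bin1 (0.967). For Krt8 they were Smim22 (0.983) and Pick1 (0.973), and for Krt18 Trp53bp2 (0.979) and Enah (0.978), a regulator of actin filaments. For Gata3 Cbx1 (0.958) is given, for Eomes they were BC053393 (0.961) and Vegfb (0.931), and for Tfap2c Tpm3 (0.982) and Hnrnpm (0.981). The closest to Gata2 was Sox2 (0.973), a factor of the inner cell mass and epiblast, followed by Lgals1 (0.947). Within the set r was 0.941 for Krt8 and Krt18, 0.931 for Cdx2 and Krt8, 0.925 for Gata2 and Eomes and -0.429 for Gata3 and Tfap2c.

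Genes of the surrounding pathways were counted from lists drawn up by name. From morula to blastocyst 18.8% of all genes rose and 26.8% changed. Of 12 tested upstream regulators of the trophectoderm, 5 rose at that step and 1 fell, with a median change of 0.44 against 0.16 over all genes. Elf3, an epithelial ETS factor, rose by 3.34 and Tfap2a by 3.32, while Hand1, a factor of later trophoblast giant cells, fell by 2.57. Of 13 genes of the pumping and sealing epithelium 7 rose and none fell (median 1.31), among them Atp1b1, a subunit of the sodium pump, by 2.96, Cldn6 of tight junctions by 2.40 and Cdh1 of adherens junctions by 1.84. Of 9 desmosome and keratin linker genes 8 rose and none fell (median 2.05), among them Dsg2 by 3.54, Dsp by 3.15, Plec by 2.39 and Dsc2 by 2.06. Dsp and Plec tie keratin filaments to the membrane and to other filaments.

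Of 11 other keratins tested none was called by limma from morula to blastocyst (median 0.00), and 1 had an unadjusted p under 0.05. The largest change was -0.68 for Krt28 (limma adjusted p = 0.0284), and from 8-cell to morula Krt10 rose by 1.23 and Krt28 fell by 2.48. Of 12 other Gata, Tfap2 and T-box genes 1 rose into the blastocyst (Tfap2a) and 2 fell (Gata1 by 2.53 and Gata4 by 1.62), beside 26.8% of all genes changed. Into the morula 3 upstream regulators rose (Elf3 by 3.30, Msx2 by 1.04 and Ets2 by 1.01), 3 epithelium genes (Cldn4 by 1.80, Aqp3 by 1.04 and Ctnnb1 by 1.03) and 3 desmosome genes (Pkp2 by 2.56, Dsg2 by 1.84 and Dsp by 1.65). The medians of these lists were 0.05, 0.61 and 0.15 against 0.07 over all genes, of which 8.18% rose at that step.

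Of 9 inner cell mass and epiblast markers 2 rose from morula to blastocyst (Sox2 by 4.03 and Nanog by 1.81) and 1 fell (Klf2 by 1.83), beside 26.8% of all genes changed. Their summed level overlapped between stages, at 256 to 368 CPM in morulae and 278 to 381 CPM in blastocysts, with none of the 9 at 0 in all libraries. Of 6 primitive endoderm markers 3 rose and 1 fell, with a summed level of 162 to 207 CPM in morulae, where Sox17 was at 0, and 210 to 259 CPM in blastocysts. Oocyte markers summed to 18575 to 21443 CPM in GV oocytes and 7.28 to 12.9 CPM in blastocysts. Beside Krt8 in GV oocytes, 4 of 10 listed markers of cumulus and granulosa cells were in the table and summed to 63.6 to 72.5 CPM there and 69.3 to 81.5 CPM in MII oocytes, where Krt8 was near 0. The same genes summed to 186 to 303 CPM in 4-cell and 146 to 206 CPM in 8-cell embryos. The part of cumulus and granulosa cells in the Krt8 values was not tested.

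The gradients ask how far these transcripts sedimented, which is used as a measure of their engagement with ribosomes. The heavy side here is the mean of fractions 6 to 10, and the light side that of fractions 1 to 5, a convention since the labels only number them. Each fraction is scaled to its own library, so its CPM give the share of a gene in the reads there, not an amount of RNA. Means, shares and positions over fractions weigh all fractions alike. At the 4-cell stage gradient A stood apart over all genes. Its median gene had 16.1% of its summed CPM in fractions 6 to 10, against 40.8% and 44.3% in gradients B and C. In the heavy fractions most of the set rose into the morula. Between 8-cell and morula 6 of the 8 genes rose (Cdx2, Gata3, Eomes, Krt8, Krt18 and Krt7), where 5.42% of all genes rose and 7.98% changed. In a limma fit of those 2 stages alone 3 of the 8 passed (Gata3, Krt8 and Krt18), while Cdx2 (adjusted p = 0.076) and Krt7 (adjusted p = 0.0664) did not. Eomes was not tested in that fit, since too few of its heavy means reached 1 CPM. From morula to blastocyst none of the 8 passed the limma test, where 0.0757% of all genes changed, although 5 (Gata2, Eomes, Krt8, Krt18 and Krt7) had an unadjusted p under 0.05. From 8-cell to blastocyst 7 of the 8 rose, all but Tfap2c, against 8.94% of all genes rising. These shares of all genes are calls of the fit over all stages, and none is given for the fit of 2 stages or for unadjusted p.

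Cdx2 showed the step at the 8-cell stage and the morula. Its heavy means were 69.5, 28.8 and 0.15 CPM in 8-cell gradients A, B and C, 298, 169 and 223 CPM in the morula and 294, 296 and 282 CPM in the blastocyst. All 3 morula gradients were above all 8-cell gradients, and the highest of them lay above all 3 of the blastocyst. The changes were 4.07 (SE 0.91, limma adjusted p = 0.00634) from 8-cell to morula and 0.37 (SE 0.91, limma adjusted p = 1) from morula to blastocyst. The rise of 3.09 into the 8-cell stage (limma adjusted p = 0.0464) came from gradients A and B, and it lost its call in 10 of 15 other fits, those without any 1 of the 4-cell gradients and without 8-cell gradient A or B among them.

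Krt8 and Krt18 went through a larger step. Heavy means of Krt8 were 30.2, 16.9 and 10.99 CPM at the 8-cell stage, 345, 780 and 626 CPM in the morula and 2107, 2620 and 3092 CPM in the blastocyst. Those of Krt18 were 10.3, 39.5 and 11.04 CPM, then 246, 803 and 513 CPM, then 2219, 2197 and 3939 CPM. The 3 stages did not overlap for either keratin. From 8-cell to morula Krt8 rose by 4.88 (SE 0.76, limma adjusted p = 2.23e-04) and Krt18 by 4.73 (SE 0.62, limma adjusted p = 2.84e-05), and both kept the call in all 15 other fits. From morula to blastocyst the changes of 2.22 for Krt8 (limma adjusted p = 0.572) and 2.52 for Krt18 (limma adjusted p = 0.17) missed the threshold. In a limma fit of those 2 stages alone they passed it (adjusted p = 0.0234 and 0.0268), as did Gata2 (adjusted p = 0.0263).

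Krt7 went from 4.32, 0.01 and 0 CPM at the 8-cell stage to 11.7, 11.4 and 9.14 CPM in the morula and 39.3, 23.9 and 46.2 CPM in the blastocyst, without overlap between the stages. Gata3 had 42.5, 36.9 and 43.2 CPM in the morula and 59.1, 25.7 and 40.7 CPM in the blastocyst, which overlap, after 8.39, 0 and 4.86 CPM at the 8-cell stage. Its morula rise of 3.46 (SE 0.99, limma adjusted p = 0.0329) lost its call without 8-cell gradient B and without any 1 of the 3 morula gradients. Eomes reached 0.95, 5.46 and 1.83 CPM in the morula, a rise of 1.72 (limma adjusted p = 0.00474), and 12.6, 4.13 and 7.46 CPM in the blastocyst. Gata2 was at 0 to 1.00 CPM in morula gradients and at 17.7, 7.96 and 17.6 CPM in blastocysts. Tfap2c had heavy means of 202 ± 56.0 CPM at the 8-cell stage, 160 ± 19.8 CPM in the morula and 180 ± 34.7 CPM in the blastocyst (SD, n = 3).

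Earlier in development few of the set passed the test in heavy fractions. Krt8 fell by 3.53 from GV to MII (SE 0.76, limma adjusted p = 0.00764), from 17.0, 8.84 and 11.1 CPM to 0, 0.40 and 0 CPM, and it was the 1 gene of the 8 called there (4.06% of all genes). Its light fractions held 4.90, 5.18 and 11.4 CPM in MII oocytes, above the heavy values without overlap. Gata3 fell by 3.09 from zygote to 2-cell (limma adjusted p = 0.0301; 1 of 8, 20.8% of all genes), a call lost without any 1 zygote gradient or 2-cell gradient B. Krt8 rose by 2.09 from 2-cell to 4-cell (limma adjusted p = 0.0334; 1 of 8, 37.8%), a call lost without any 1 of the 2-cell gradients or 4-cell gradient A. Krt18 rose by 2.75 from 4-cell to 8-cell (limma adjusted p = 0.00904), beside Cdx2 (2 of 8, 6.54%), and lost its call without 8-cell gradient B. From MII to zygote none was called with limma, and none had an unadjusted p under 0.05 (1.49% of all genes).

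**Figure D2:**
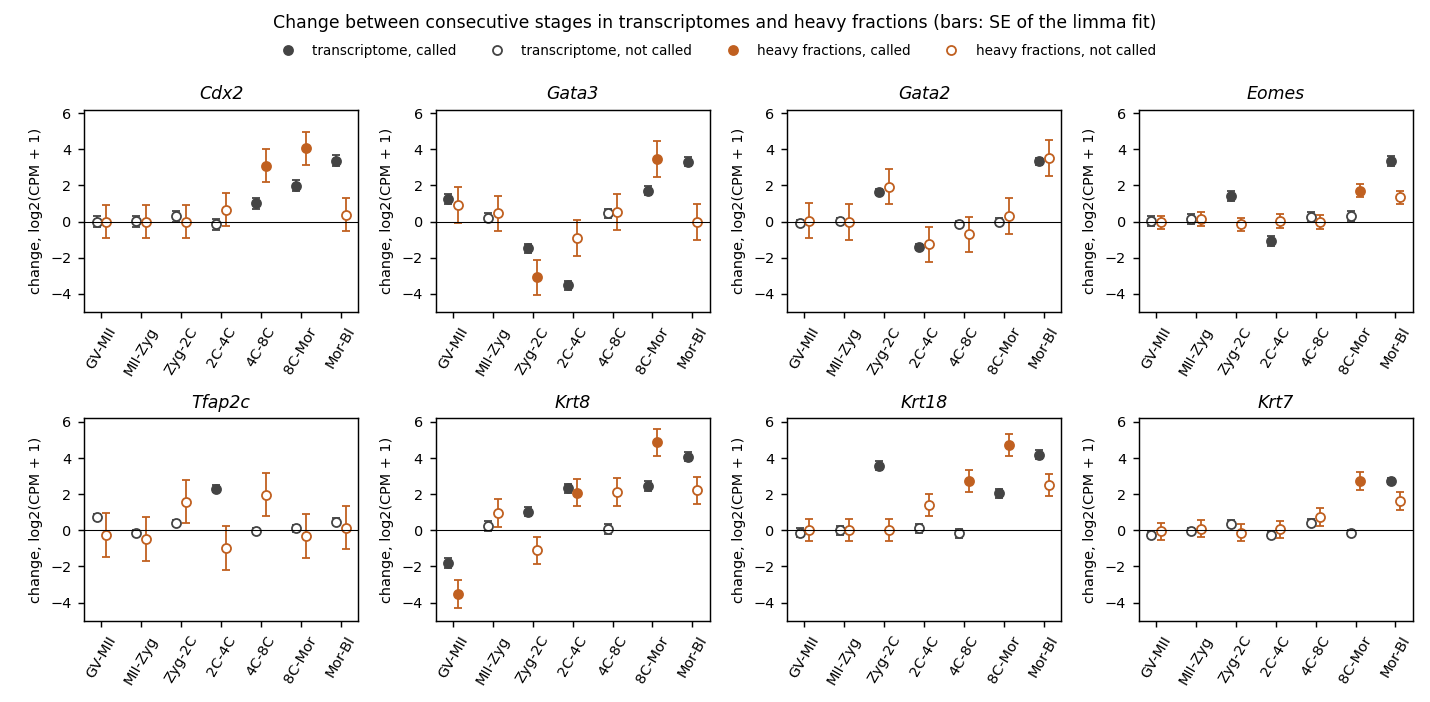
Change between consecutive stages on the log2(CPM + 1) scale (vertical axis) for each gene, in transcriptomes (dark grey) and heavy fractions (orange), with SE bars and filled points where limma called the change. From 8-cell to morula the heavy change of Krt8 is 4.88 against 2.45 in the transcriptome, and from morula to blastocyst the order is turned, at 2.22 against 4.09.

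Whether the heavy fractions moved beyond the transcriptome was tested as an interaction in limma. Into the morula the heavy fractions of Krt7 (2.87, SE 0.42, limma adjusted p = 3.76e-06), Krt18 (2.68, SE 0.56, limma adjusted p = 0.00132) and Krt8 (2.43, SE 0.70, limma adjusted p = 0.0255) rose more than their transcriptomes, 3 of 8 where 3.97% of all genes did so and 6.45% differed in either direction. Krt7 and Krt18 kept this in all 22 other fits. Krt8 kept it in 15 of 22. The fit blocked by replicate letter ended it (2.71, limma adjusted p = 0.0601), as did a pseudocount of 0.1 and leaving out 8-cell gradient C, morula gradient B or C, 8-cell transcriptome A or morula transcriptome C. From morula to blastocyst the calls were for other genes. By limma the heavy fractions fell behind for Gata3 (-3.36, adjusted p = 0.0291), Cdx2 (-3.01, adjusted p = 0.0458) and Eomes (-1.98, adjusted p = 0.00879), 3 of 8 where 1.73% of all genes did so and 2.2% differed in either direction. The Cdx2 difference held in 8 of 22 other fits, and leaving out any 1 of 5 gradients or 7 transcriptomes of the 2 stages ended it. The Gata3 difference held in 12 of 22 and was lost without morula gradient A or C, blastocyst gradient B or C, morula transcriptome B or C or blastocyst transcriptome A or C. Eomes lost its call without morula or blastocyst gradient B, and a pseudocount of 0.1 left none of the 3.

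The same interaction had calls in early cleavage. From zygote to 2-cell the heavy fractions of Krt18 (-3.57), Krt8 (-2.14) and Eomes (-1.56) did not follow the rise of their transcriptomes (3 of 8, all with limma adjusted p at or below 0.0186, where 27.5% of all genes differed and 26% fell behind). Krt18 had 0 CPM on the heavy side in all 3 gradients of the 2-cell stage, and 15.4, 0 and 26.4 CPM on the light side. It was at 0 in 26 of 30 fractions of that stage, and Krt8 in 25 of 30, so few fractions carry these differences. Eomes was at 0 in 29 of 30 fractions of the 2-cell stage, light ones included, so its mean over all fractions (0.012 CPM) lay below the transcriptomes (2.23 CPM) without overlap. From 2-cell to 4-cell Tfap2c fell behind by 3.29 and Gata3 stood 2.62 above its transcriptome change (2 of 8, 31.8% of all genes), and each lost its call without 2-cell gradient B. Tfap2c lost it without 4-cell gradient A too, and Gata3 without 4-cell gradient C. Gradient A had a low heavy share over all genes. Its heavy mean of Tfap2c was 0.62 CPM, against 417 and 191 CPM in the other gradients. From 4-cell to 8-cell Krt18 (2.90) and Krt8 (2.05) rose more than their transcriptomes (2 of 8, 13.7% of all genes), and Krt8 kept this in only 9 of 22 other fits. No gene of the set was called in the 2 earlier steps, where 8.22% and 2.28% of all genes were, and 1 (Krt8, GV to MII) had an unadjusted p under 0.05.

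A measured fact stands beside these interactions. It uses the mean over 10 fractions, which weighs each alike whatever RNA it held. This mean is thus not the level of the whole gradient, and fractions with little RNA can raise or lower it. In the morula the mean over all 10 fractions was above all 4 transcriptomes in all 3 gradients for 6 of the 8 genes, where 28.7% of all genes were. Cdx2 had 153 ± 34.0 CPM over the gradients (SD, n = 3) and 8.58 ± 4.20 CPM in transcriptomes (SD, n = 4), Krt18 379 ± 195 against 46.8 ± 2.61 CPM, Krt8 392 ± 143 against 72.1 ± 17.9 CPM, and Krt7 7.24 ± 0.99 against 0.39 ± 0.46 CPM. Gata3 and Tfap2c were the others, with differences of 0.98 and 0.61 on the log2 scale, and the median over all genes was -0.12. In the blastocyst Cdx2, Krt18 and Krt7 were above (25.5% of all genes) and Gata3 and Eomes below all transcriptomes (40.9% of all genes). Gata3 had 49.8 ± 10.0 CPM over blastocyst gradients and 156 ± 25.9 CPM in transcriptomes. Light and heavy fractions were thus both above the transcriptome for Cdx2, Krt8 and Krt18 in the morula, and the part of this offset between kinds of library in the interactions was not tested.

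**Figure D3:**
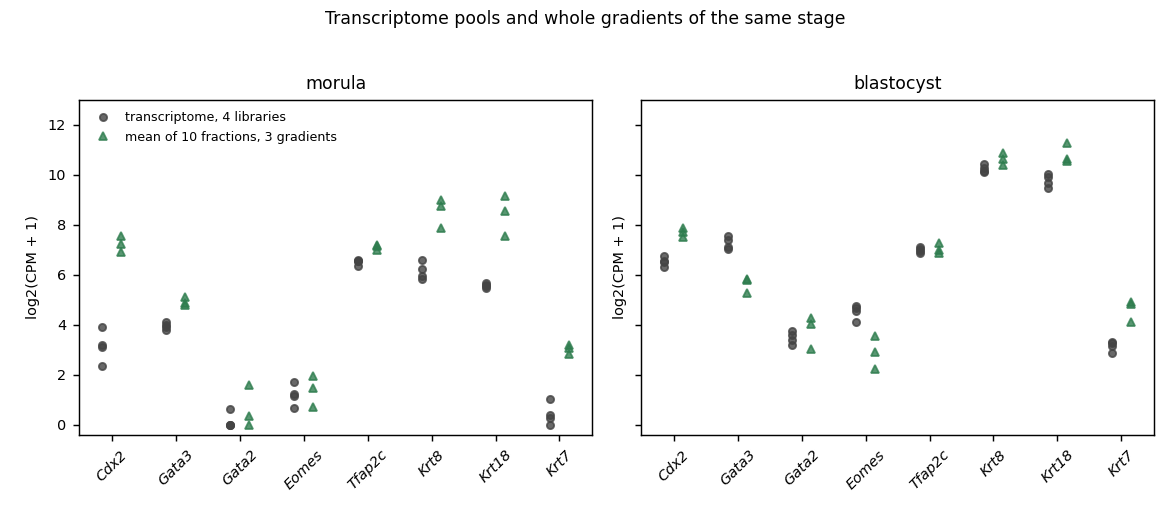
Level of each gene in the 4 transcriptome libraries (circles) and as the mean of the 10 fractions of each of 3 gradients (triangles), as log2(CPM + 1), in morula and blastocyst. In the morula Cdx2, Krt8, Krt18 and Krt7 sit higher in the gradients, and in the blastocyst Gata3 and Eomes sit lower.

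Within a stage, the heavy side was set against the light side of the same gradients. In the morula the heavy mean was above the light mean in 3 of 3 gradients for 7 of the 8 genes, all but Gata2, where 30.8% of all genes did so. In the blastocyst this was so for 6 of the 8 (Cdx2, Eomes, Tfap2c, Krt8, Krt18 and Krt7), where 28.1% of all genes did so. The limma test over all stages called none of the 8 in the morula (5.81% of all genes) or the blastocyst (2.74%), with unadjusted p under 0.05 for 4 of the 8 in the morula (Cdx2, Eomes, Krt8 and Krt7) and 2 in the blastocyst (Krt8 and Krt7). In that fit all stages share 1 spread, and the 5.81% and 2.74% are its calls. They do not apply to the unadjusted p or to the stage-wise fits that follow, for which no share of all genes is given. A limma fit of the blastocyst alone called 5 of the 8, namely Krt8 (2.12, SE 0.18, adjusted p = 2.65e-05), Krt18 (1.52, adjusted p = 5.87e-04), Cdx2 (1.25, adjusted p = 0.00716), Tfap2c (1.06, adjusted p = 0.00758) and Krt7 (1.44, adjusted p = 0.0113). A limma fit of the morula alone called Cdx2 (1.56, adjusted p = 0.00488) and Krt8 (1.51, adjusted p = 0.0169). Both fits of single stages treat the heavy and light sides of a gradient as separate samples, although they share a lysate. The limma fit over all stages with each gradient as a block uses that pairing. It called only Krt7 of the set in the morula (1.51, adjusted p = 0.0268) and none in the blastocyst.

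Blastocyst Krt8 had light means of 576, 532 and 683 CPM, against the heavy means of 2107, 2620 and 3092 CPM. Blastocyst Krt18 had light means of 973, 799 and 1053 CPM, and Tfap2c had 63.9, 101 and 93.4 CPM on the light and 188, 210 and 142 CPM on the heavy side. Heavy and light values did not overlap for any of the 3 genes. Blastocyst Gata3 was the contrary case among the factors, with 49.4, 50.9 and 73.0 CPM on the light and 59.1, 25.7 and 40.7 CPM on the heavy side, and a difference of -0.51 (SE 0.89, limma adjusted p = 1).

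Before the morula the side differed for few genes. Krt8 was lower on the heavy side in MII oocytes (-2.78, limma adjusted p = 0.025; 1 of 8, 3.23% of all genes) and at the 2-cell stage (-2.82, adjusted p = 0.00603), where Krt18 was lower too (-2.94, adjusted p = 0.00471; 2 of 8, 18.2% of all genes). The MII call was lost when any 1 of the 3 MII gradients was left out. At the 2-cell stage Krt8 lost its call without gradient B or C, and Krt18 without gradient A or C. Both calls rested on few fractions, since Krt8 was at 0 in 25 of 30 fractions there and Krt18 in 26 of 30. Cdx2 was higher on the heavy side at the 8-cell stage (2.30, limma adjusted p = 0.0494; 1 of 8, 9.05% of all genes), with heavy means of 69.5, 28.8 and 0.15 CPM and light means of 2.72, 0 and 4.42 CPM. This rested on gradients A and B and was lost in 8 of 13 other fits, the fit with each gradient as a block among them. None was called in GV oocytes (0.0725%), zygotes (3.01%) or 4-cell embryos (16.3%), and of these only Krt8 in zygotes had an unadjusted p under 0.05 (0.0432). Zygotes had Gata3 at 29.6, 43.4 and 51.4 CPM on the heavy and 16.1, 15.7 and 11.6 CPM on the light side. A limma fit of the zygote alone called it, and the fit with each gradient as a block did not.

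**Figure D4:**
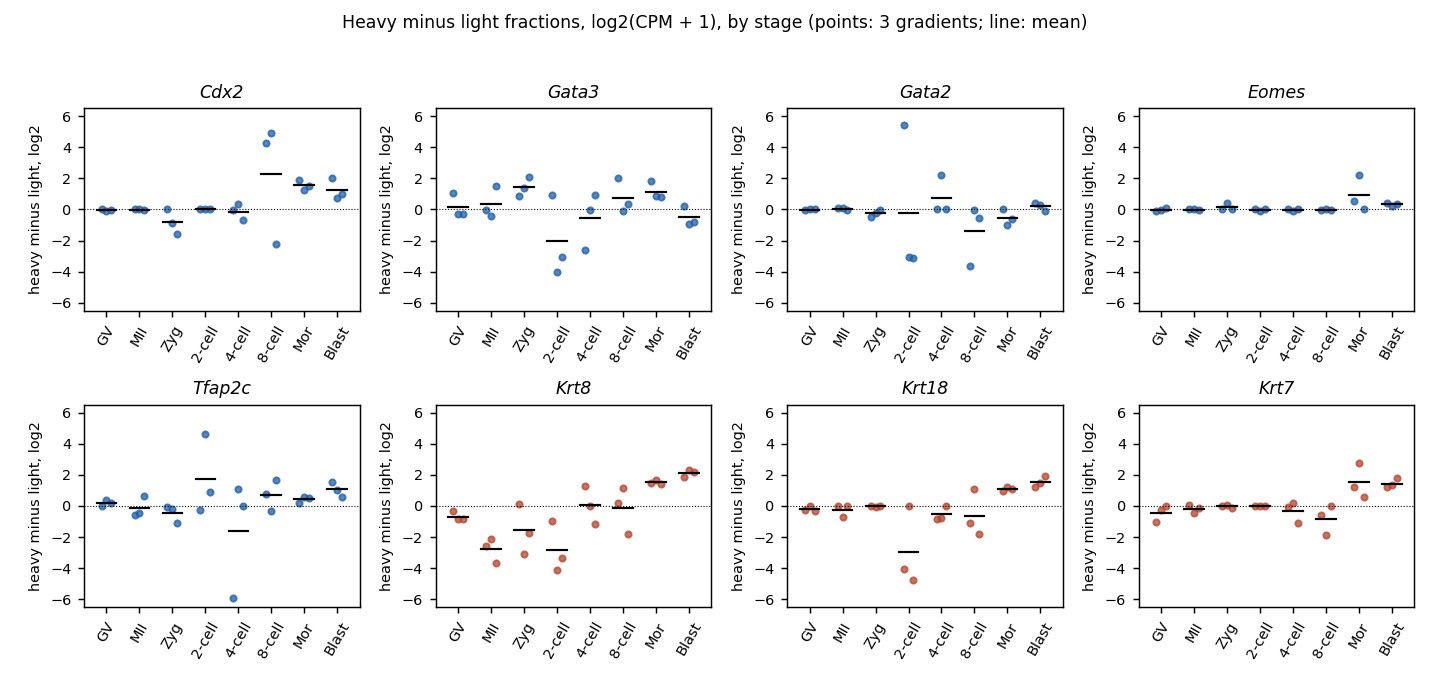
Heavy minus light side per gradient, as the difference of log2(CPM + 1) (vertical axis), for the 8 genes and 8 stages, with 3 gradients as points and their mean as a line. In morula and blastocyst the 3 gradients of Krt8, Krt18 and Krt7 lie above 0, and Cdx2 at the 8-cell stage has 2 gradients above and 1 below.

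The change of the heavy minus light difference between stages was tested as well. None of the 8 genes passed limma's test from 4-cell to 8-cell (2.47% of all genes), from 8-cell to morula (0.534%) or from morula to blastocyst (0.0198%). Into the morula the difference was larger by 2.33 for Krt7 (SE 0.75, limma adjusted p = 0.214), 1.71 for Krt18 (SE 1.07, adjusted p = 0.771) and 1.67 for Krt8 (SE 1.06, adjusted p = 0.78), and Krt7 and Eomes had an unadjusted p under 0.05. From 4-cell to 8-cell Cdx2 had 2.45 (SE 1.08, limma adjusted p = 0.243) and was the 1 gene of the set with an unadjusted p under 0.05.

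Along the 10 fractions the CPM of the keratins were highest at the heavy end. A share of summed CPM is not a share of transcripts, since each fraction is scaled to its own library. In the blastocyst the 3 gradients of Krt8 and Krt18 had their highest value in fraction 10, and so did Krt7 and Tfap2c. Fraction 10 held 7028 CPM of Krt8, 5995 CPM of Krt18 and 79.2 CPM of Krt7 on average, and fraction 9 held 2978, 4558 and 53.9 CPM. Fractions 9 and 10 together held 62.4 ± 2.19% of the summed CPM of Krt8, 55.7 ± 5.998% of Krt18 and 53.9 ± 9.29% of Krt7 (SD, n = 3), a pair of fractions chosen after the profiles were seen. The factors had less there on average: 39.4 ± 7.08% for Tfap2c, 27.5 ± 6.78% for Gata2, 23.3 ± 13.6% for Gata3, 22.5 ± 10.7% for Cdx2 and 21.2 ± 8.44% for Eomes. Tfap2c overlapped with Krt7, at 45.4% against 44.7% in gradient A, and was lower than Krt7 in gradients B and C. The median over all genes was 13.7 to 18.3% in the 3 gradients. In the morula Krt8 already had 55.7 ± 2.81% and Krt18 48.1 ± 4.39% in these fractions, and at the 8-cell stage the gradients disagreed, with 0.68 to 70.4% for Krt8.

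A mean fraction number weighted by CPM again put the 3 keratins first and Tfap2c next, with another order of the other factors. In the blastocyst it was 7.96 ± 0.19 for Krt8, 7.46 ± 0.32 for Krt18 and 7.38 ± 0.44 for Krt7 (SD, n = 3), and 6.81 for Tfap2c, 6.48 ± 0.57 for Cdx2, 5.78 for Eomes, 5.76 for Gata2 and 4.95 ± 0.86 for Gata3. Krt8 stood above Krt18 in each of the 3 gradients although their ranges overlapped, and Krt18, Krt7 and Tfap2c overlapped with their neighbours in this order. Without fraction 1 blastocyst Gata3 stood at 6.15, level with Eomes (6.15) and Gata2 (6.06), and morula Gata3 at 7.91 in place of 6.75. The median over all genes, with all fractions, was 5.202 to 5.572. In the morula Krt8 (7.42), Krt7 (7.35), Cdx2 (7.06), Krt18 (7.06), Gata3 (6.75) and Tfap2c (6.28) all had a mean above the 5.55 to 5.93 of all genes. Per kilobase the ratio of Krt8 to Krt18 was 0.72 ± 0.15 on the heavy and 0.47 ± 0.03 on the light side of blastocyst gradients (SD, n = 3), without overlap, against 1.02 ± 0.10 in transcriptomes.

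**Figure D5:**
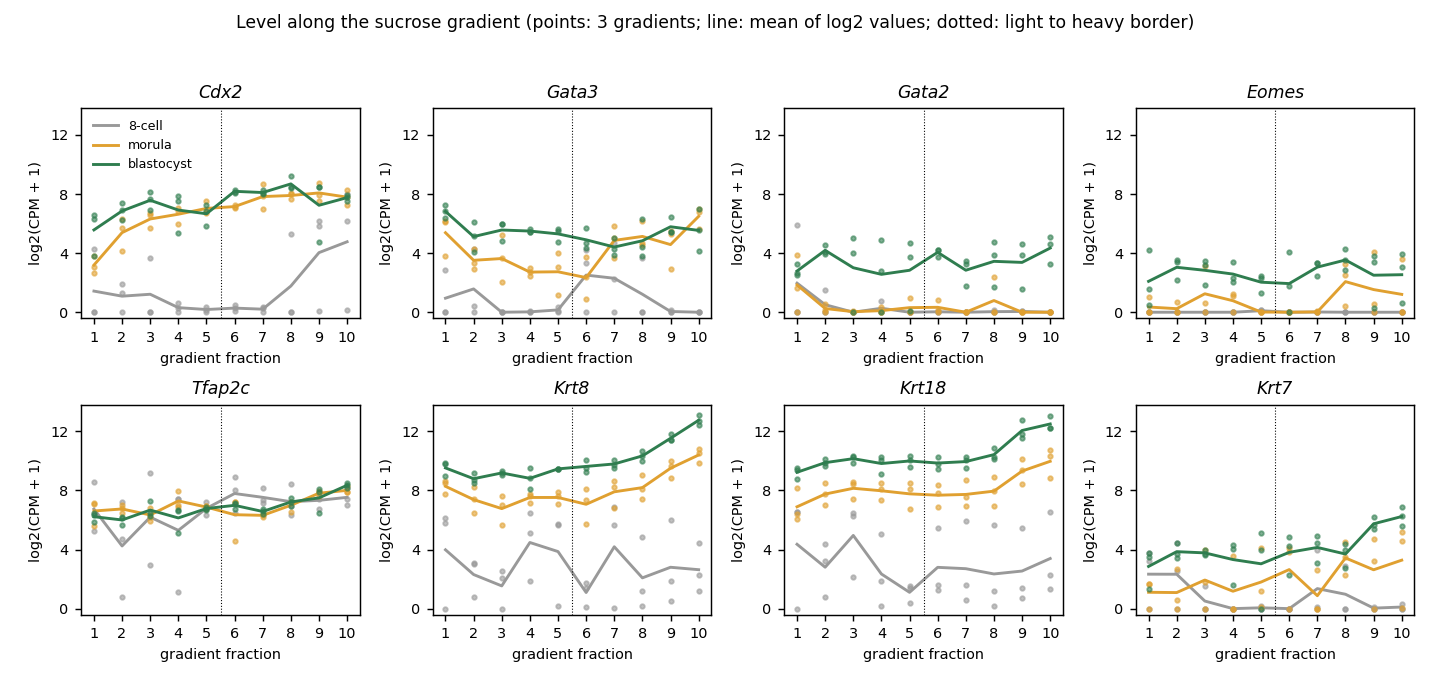
Level along the 10 gradient fractions (horizontal axis) as log2(CPM + 1) at the 8-cell stage, morula and blastocyst, with 3 gradients as points and their mean as lines; the dotted line divides light from heavy fractions. Krt8, Krt18 and Krt7 climb in fractions 9 and 10 of the blastocyst. Gata3 has its highest mean there in fraction 1 (115 CPM), with 57.4 and 61.9 CPM in fractions 9 and 10.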

How the data were processed

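Poly(A) RNA was amplified with SMART-Seq v4 and sequenced from 32 transcriptome libraries and 240 gradient fractions. The deposited CPM values were made by the authors from gene counts, and per the submitters' processing notes the tools include Trim Galore 0.6.7, FastQC, HISAT2 2.2.1, featureCounts 2.0.1 and edgeR, with the build GRCm39. Of the deposited columns, 38 sum to more than CPM columns can, and 9 of these, the 4 blastocyst transcriptomes among them, are treated as signal in the record of units and used unchanged beside the CPM columns. Whole reads were recovered from 100% of values (tolerance 0.05 reads), and edgeR 4.0.16 and DESeq2 1.42.0 were run on them as alternatives. Symbols with identical values were reduced to 1 (15771 kept, none of them in the set). Columns of the 2-cell transcriptomes are lettered E to H and their labels A to D, so they were assigned by group only.

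Fractions of a gradient were averaged into a heavy and a light side, and values were taken as log2(CPM + 1). limma 3.58.1 (R 4.3.3) was fitted over all stages, for genes with at least 1 CPM in at least 4 transcriptome libraries, or in at least 3 gradient means. p-values were adjusted by Benjamini and Hochberg over all genes tested, the fits were tested on simulated data, and floors cover counting error only. The other pseudocount, filter, normalization, sides, fits of the compared stages alone, count models, replicate block and leaving out of each replicate are described under the closing section. The heavy and light sides of a gradient share a lysate, and their deviations correlated at 0.008 to 0.253 (median 0.097). Transcriptomes of the same letter at different stages had -0.177 to 0.195 (median 0.016), and these ranges overlap. Besides the set, the text names the 2 genes most correlated with each gene that reached 10 CPM, and up to 4 called genes of each list with the largest change. Markers are given as lists, and other genes were named after their values were seen. The genes and lists were chosen with earlier results of these data known. Promoter windows and exon lengths come from GRCm38 annotations, so no coordinate is joined to the expression build. Krt19 was not analysed here. Some genes that the naming rule would give are not reported here.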

Additional observations from a re-analysis of the deposited data

How the results depend on the processing

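Counts are of the 8 genes called, with the reported count in brackets. Fits of the compared stages alone apply the filter within those stages. A gene that misses it there is not tested, so it is not called. The rises from morula to blastocyst and from 8-cell to blastocyst in transcriptomes were 7 under every alternative run. In transcriptomes, quantile normalization gave 3 (5) at the first cleavage and 3 (5) at the 2-cell to 4-cell step, a fit of the compared stages alone 0 (1) from 4-cell to 8-cell, and DESeq2 4 (2) from GV to MII and 1 (0) from MII to zygote. In heavy fractions, a pseudocount of 0.1 gave 0 (1) from zygote to 2-cell, 2 (1) at the next step and 1 (2) from 4-cell to 8-cell. No filter gave 1 (2) from 4-cell to 8-cell, quantile normalization 3 (1) from 2-cell to 4-cell and 0 (2) from 4-cell to 8-cell, a limma fit without a trend 2 (1) and fractions 7 to 10 as heavy 2 (1) from 2-cell to 4-cell. Fits of the compared stages alone gave 0 (1), 0 (1), 0 (2), 3 (6) and 3 (0) for the steps from the zygote on, and 7 (11) over all consecutive steps with the GV to MII call of 1 gene. The mean of log2 values over fractions gave 1 (2) from 4-cell to 8-cell and 5 (0) from morula to blastocyst.

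For heavy against light fractions, the 8-cell count was 0 (1) with a pseudocount of 0.1, no filter, stage-wise fits, the mean of log2 values, fractions 1 to 3 as light or the replicate block. Stage-wise fits gave 1 (0) in zygotes, 0 (2) at the 2-cell stage, 2 (0) in morulae and 5 (0) in blastocysts, 9 (4) in all. The mean of log2 values gave 1 (2), 2 (0) and 1 (0) in 2-cell embryos, morulae and blastocysts. Morulae had 1 (0) with fractions 7 to 10 as heavy, with fractions 1 to 3 as light and with the replicate block, and 2-cell embryos 1 (2) with fractions 1 to 3 as light. For heavy fractions beyond the transcriptome, a pseudocount of 0.1 gave 1 (2) from 4-cell to 8-cell and 0 (3) from morula to blastocyst, quantile normalization 5 (2) after the 2-cell stage and 0 (2) after the 4-cell stage, and fractions 7 to 10 gave 1 (2) from 2-cell to 4-cell. Fits of the compared stages alone gave 1 (0) from GV to MII, 0 (2) at each of the steps between 2-cell and 8-cell and 5 (3) from morula to blastocyst. The replicate block, by letter, gave 1 (2) from 4-cell to 8-cell and 1 (3) from morula to blastocyst, and 2 (3) from 8-cell to morula, where it ended the Krt8 call. Letters pair only the sides of a gradient. The cause of these shifts was not tested.

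Leaving out 1 library at a time, transcriptome counts from GV onwards were 2 to 2, 0 to 0, 4 to 5, 4 to 5, 0 to 1, 4 to 4 and 7 to 7, and 7 to 7 from 8-cell to blastocyst. Heavy counts were 1 to 1, 0 to 0, 0 to 2, 0 to 2, 0 to 2, 5 to 6 and 0 to 1, and 6 to 7 from 8-cell to blastocyst. Heavy against light counts were 0 to 0 in GV and MII oocytes and zygotes, 0 to 3, 0 to 1, 0 to 1 and 0 to 1 from 2-cell to morula, and 0 to 0 in blastocysts. Changes of the heavy minus light difference had 0 to 1, 0 to 1 and 0 to 0, and heavy fractions beyond the transcriptome 0 to 0, 0 to 0, 2 to 5, 0 to 3, 1 to 3, 2 to 4 and 0 to 3. Without 4-cell gradient A the heavy change of Tfap2c from 2-cell to 4-cell turned from -0.98 to 1.503, and without 2-cell gradient A the Gata2 difference beyond the transcriptome, zygote to 2-cell, turned from 0.29 to -1.68. Fractions of low depth limit what heavy means of genes near 1 CPM can show.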

Other observations

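In heavy fractions, some listed genes that work with the set rose into the morula and most did not pass the test, where 5.42% of all genes rose. Of 12 upstream regulators 2 rose, Elf3 by 6.36 and Msx2 by 2.62, with a median change of 0.10 against 0.04 over all genes. Of 13 epithelium genes 2 rose, the sodium pump subunit Atp1b1 by 2.74 and the tight junction claudin Cldn4 by 1.63 (median 0.14). Of 8 desmosome and linker genes 3 rose, Pkp2 by 2.97, Dsg2 by 2.71 and Dsp by 2.45 (median 2.49), which had risen by 2.56, 1.84 and 1.65 in transcriptomes. Atp1b1 was not among the transcriptome calls at that step.

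For some of the set the mean CPM over oocyte fractions stood above or below the transcriptomes. In GV oocytes Tfap2c had 51.7 CPM over the 10 fractions and 7.91 CPM in transcriptomes, and Krt8 had 16.1 ± 3.41 CPM (SD, n = 3) and 2.71 ± 1.10 CPM (SD, n = 4). Gata3 had 14.7 CPM over GV gradients and 37.7 CPM in transcriptomes, and 28.0 against 107 CPM in zygotes. A single 2-cell gradient, A, carried 59.4 CPM of Gata2 on its heavy side, where gradients B and C had 0 and 0.03 CPM.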
